A study of Homo sapiens with 9 samples.

Results

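The 10 genes described here encode amino acid transporters of the plasma membrane: SLC7A2, SLC7A1, SLC7A5, SLC7A6, SLC7A8, SLC7A11, SLC3A2, SLC1A4, SLC1A5 and SLC38A2. They are 10 of the 18417 genes that have a probe set of their own on the array, and the set was built around SLC7A2 because its signal was lower in TFPIβ arrays than in empty vector arrays. The values that chose SLC7A2 are therefore given as a description with no test, and so are its values in the other comparisons, which use the same arrays. SLC7A8 is likewise described with no test, since it passed the filter on low signals only through TFPIβ arrays. A probe set was used where the array annotation gives it exactly 1 of these symbols, and the brightest was taken where a gene had several. Of the 10 genes, 9 reached a log2 signal of 5 on at least 1 array and SLC1A4 did not, which leaves 7 tested transporters.

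The arrays came from SK-BR-3, a breast cancer cell line known for amplification of the receptor gene ERBB2 (HER2) and labelled luminal-like, grown in RPMI medium with serum. Cells carried the pcDNA3.1/V5/His-pTOPO plasmid with TFPIβ cDNA, with TFPIα cDNA, or with no insert (empty vector), and TFPI encodes tissue factor pathway inhibitor, a protease inhibitor of blood coagulation whose α form is secreted and whose β form is anchored to the cell surface. The question was which transcripts differ when either isoform is overexpressed. Each group had 3 Affymetrix Human Gene 1.0 ST arrays from separate RNA isolations of 1 stably transfected pool, so a difference between pools and an effect of TFPI cannot be told apart, and p-values measure the spread between isolations. All cells went through drug selection, which the labels give as puromycin and the study's methods as neomycin.

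Amino acids cross the plasma membrane on carriers that differ in charge preference and in driving force. Cationic carriers of the SLC7 family bring in arginine, lysine and ornithine. Heterodimeric carriers pair the glycoprotein SLC3A2 (4F2hc, CD98) with a light chain of the same SLC7 family and exchange one amino acid for another. Sodium-coupled carriers of the SLC1 and SLC38 families accumulate glutamine, alanine and serine against their gradients. When amino acids run short, the transcription factor ATF4 raises the transcription of several of these carriers along with asparagine synthetase and aminoacyl-tRNA synthetases, and breast cancer cells are known for their demand for glutamine, leucine and cystine.

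The array signals of the transfected gene and of identity markers were set against the labels. TFPI had log2 signals of 5.55, 5.79 and 5.81 in TFPIβ arrays and 5.66, 5.81 and 5.51 in TFPIα arrays, against 5.81, 6.48 and 6.45 in empty vector arrays. Its log2 differences from empty vector were below 0, at -0.53 (adjusted p = 1, limma) for TFPIβ and -0.59 (adjusted p = 0.335, limma) for TFPIα. The study states that the transfected cDNA lacks the UTRs to which some TFPI probes of the array bind. Overexpression was thus not seen in this signal, and why it was lower than in empty vector arrays was not tested. ERBB2 lay between 5.63 and 6.24 over the 9 arrays, and KRT19, a luminal keratin, between 4.64 and 5.25. Of the other measured luminal markers, KRT18 lay between 9.49 and 10.76, KRT7 between 10.18 and 10.77, and XBP1 between 8.85 and 9.78. MUC1 averaged 8.35 in TFPIβ, 7.40 in TFPIα and 8.74 in empty vector arrays. The rest were lower, with KRT8 between 5.68 and 6.20. Group means were 5.09 to 5.19 for GRB7, 6.51 to 6.54 for STARD3 and 5.08 to 5.44 for GATA3. They were 4.74 to 4.96 for FOXA1 and 4.39 to 5.17 for AGR2. The basal keratins KRT5 and KRT14 lay between 12.40 and 12.83 and between 11.99 and 12.74. Of 18 annotated luminal and HER2 markers 12 reached the log2 signal of 5, and ESR1, SPDEF, TFAP2B, EPCAM, ERBB3 and TFF3 did not, while 9 of 9 annotated basal markers did. The ERBB2, KRT5 and KRT14 signals go against the label of a luminal-like line with ERBB2 amplification. The identity of the cells was not tested, and groups are named by the labels of their arrays throughout. The median signal of an array was 4.78 to 4.88, and pairs of arrays correlated at 0.978 to 0.993 over 33297 probe sets.

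None of the 7 tested transporters met the rule for a call in any comparison. A transporter was called where limma gave an adjusted p under 0.05, taken over 17482 probe sets, and the means differed by 2-fold or more. Between TFPIβ and empty vector arrays 0 of 7 tested transporters were called (0% of all probe sets), between TFPIα and empty vector arrays 0 of 7 (0.00572%, which is 1 probe set), and between TFPIβ and TFPIα arrays 0 of 7 (0%). An unadjusted p under 0.05 was reached by 0 of 7 for TFPIβ against empty vector (4.72% of all probe sets), by 2 of 7 for TFPIα against empty vector (14.2%) and by 0 of 7 for TFPIβ against TFPIα (8.63%). With replicate number as a block in limma these counts were 1, 3 and 0 of 7, against 7.16%, 20.3% and 15.4% of all probe sets. Both comparisons with empty vector used the same 3 control arrays.

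The difference of means was below 0 for 6 of these 7 transporters in TFPIβ against empty vector arrays, where 49.5% of all probe sets were, with a median of -0.26 on the log2 scale. It was below 0 for 6 of 7 in TFPIα against empty vector arrays (50% of all probe sets), with a median of -0.45. Between TFPIβ and TFPIα arrays 3 of 7 were below 0 (50.3% of all probe sets) and the median was 0.02. The median over all probe sets was 0.00 in each comparison.

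**Figure D1:**
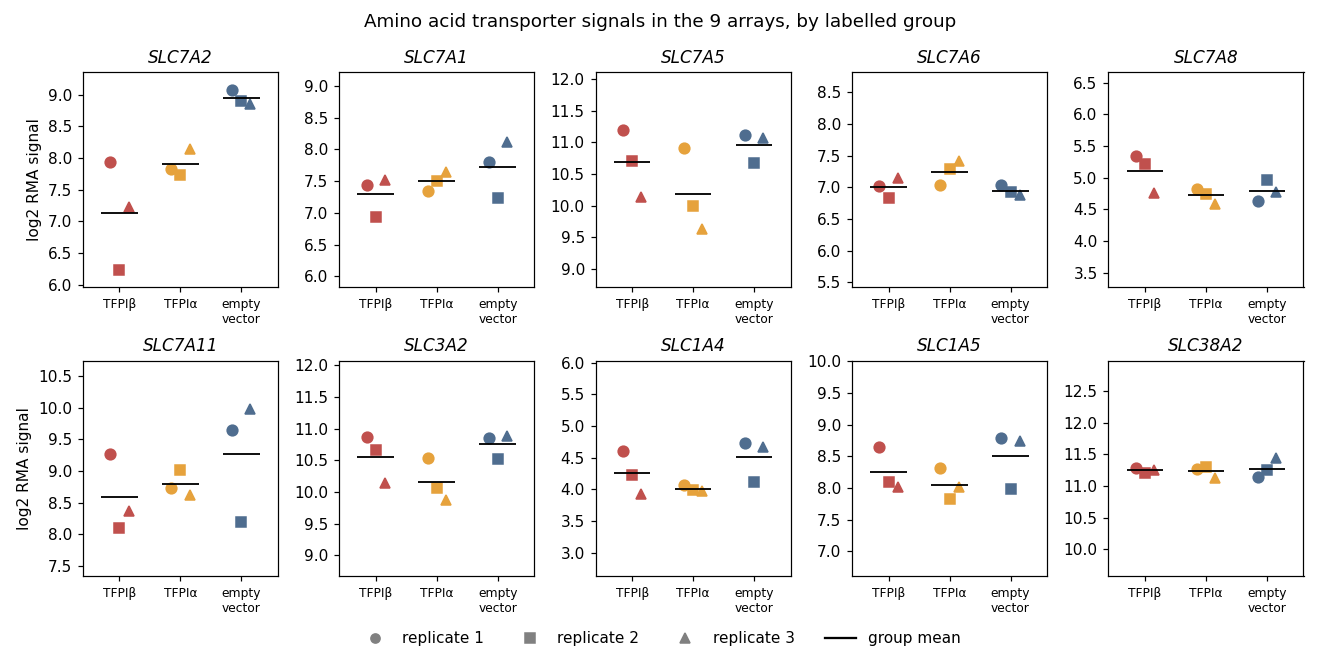
Log2 RMA signal of each transporter (vertical axis, the same span of log2 units in every panel) in TFPIβ, TFPIα and empty vector arrays (left to right), with symbols for replicate numbers and a line at the mean of 3 arrays. For SLC7A2 the empty vector arrays sit between 8.85 and 9.08, above the other 6 arrays, while for SLC7A11, SLC1A4 and SLC1A5 the empty vector array of replicate 2 sits well below the other 2.

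RefSeq promoter windows of 300 bases (250 before and 50 after a transcript start, GRCh38.p14) were used for 8 of the 10 genes, 16 windows in all. SLC7A2 was left out of this search, and no window was given for SLC7A11. The 16 windows were searched on both strands for the core of the amino acid response element, which ATF4 binds, spelled TGATGNAAN. It was found in 4 of 16 windows, those of SLC1A4, SLC1A5, SLC3A2 and SLC7A1, and in 3.61% of 35116 windows of all genes. These stretches are shown as examples of the letters in genes whose array-to-array patterns are described further on. Whether ATF4 acts on them in these cells was not tested. They are printed 5′ to 3′ on the strand of the gene, with the match in capitals and 10 bases on either side where the window allows. For SLC1A4 and SLC3A2 the capitals are the reverse complement of the searched letters.
SLC1A4 (chr2:64989381-64989409, plus strand, match begins 8 bases before the start): gcggctcccgTTTGCATCAtctccagccg
SLC1A5 (chr19:46784893-46784921, minus strand, match begins 97 bases before an alternative start): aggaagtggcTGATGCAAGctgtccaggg
SLC3A2 (chr11:62881725-62881748, plus strand, match begins 36 bases after the start): tgcaggactcCTTACATCAgctcc
SLC7A1 (chr13:29595663-29595691, minus strand, match begins 7 bases after the start): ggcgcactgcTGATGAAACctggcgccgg

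The core of the antioxidant response element, spelled TGACNNNGC and bound by NFE2L2, was in 5 of the 16 windows, from SLC1A5, SLC3A2, SLC7A1, SLC7A5 and SLC7A6, and in 13.3% of all windows. The stretches of SLC3A2, SLC7A5 and SLC7A6 nearest to the start are shown, from the heavy chain and its light chains for leucine and for arginine. The signals of the first 2 ran together and that of SLC7A6 ran the other way (r = -0.84 with SLC3A2 and -0.80 with SLC7A5). Without TFPIα replicates 2 and 3 these values were -0.49 and -0.31. Whether NFE2L2 acts on these stretches in these cells was not tested. The capitals again mark the match, and in these genes no match of one motif shared bases with a match of the other.
SLC3A2 (chr11:62881652-62881680, plus strand, match begins 37 bases before the start): cgagggtgggTGACTCAGCgtcctccttc
SLC7A5 (chr16:87869491-87869519, minus strand, match begins 2 bases before the start): gcggggttccTGACGCAGCtgcgggcggc
SLC7A6 (chr16:68264487-68264515, plus strand, match begins 29 bases before the start): cggcggcgggTGACGTGGCggggcggggc

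SLC7A2 encodes CAT2, a carrier of arginine, lysine and ornithine whose isoforms differ in affinity. Its log2 signals were 7.93, 6.24 and 7.23 in TFPIβ arrays, 7.83, 7.73 and 8.14 in TFPIα arrays, and 9.08, 8.90 and 8.85 in empty vector arrays. The empty vector arrays were high and close together, all 6 TFPI arrays lay below them, and the TFPIβ arrays were the most spread out, with replicate 2 lowest of the 9. Group means were 7.13 ± 0.85 for TFPIβ, 7.90 ± 0.21 for TFPIα and 8.95 ± 0.12 for empty vector (SD, n = 3 each). The difference of the TFPIβ mean from that of empty vector arrays was -1.81 (SE 0.36), which is 3.51-fold lower, and 42 probe sets (0.24%) were at least 2-fold lower in this comparison, which chose the gene. In TFPIα arrays the difference from empty vector was -1.05, or 2.07-fold lower, where 0.486% of probe sets were at least 2-fold lower. All TFPIβ arrays below all empty vector arrays was true of 3.74% of probe sets, and all TFPIα arrays below all empty vector arrays of 8.85%.

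Within replicate numbers, TFPIβ minus empty vector was -1.15, -2.66 and -1.62 for SLC7A2, and TFPIα minus empty vector was -1.26, -1.18 and -0.72. The TFPIβ and TFPIα arrays overlapped, since TFPIβ replicate 1 at 7.93 was above TFPIα replicates 1 and 2, and the difference of their means was -0.76. The order of the group means was therefore TFPIβ, TFPIα, empty vector from low to high, with the 2 lower groups not separated by their spread. The difference between them was -0.32 without TFPIβ replicate 2 and -1.16 without TFPIβ replicate 1. Leaving out single arrays moved the TFPIβ difference from empty vector between -2.21 and -1.37, the smaller size without TFPIβ replicate 2.

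SLC7A1 encodes CAT1, the widely expressed carrier of the same cationic amino acids. Its signals were 7.44, 6.93 and 7.52 in TFPIβ arrays, 7.35, 7.51 and 7.65 in TFPIα arrays, and 7.81, 7.23 and 8.12 in empty vector arrays. The groups overlapped, and within the empty vector group the lowest and highest arrays were farther apart than any of the group means. The difference from empty vector was -0.43 for TFPIβ (SE 0.24, adjusted p = 1, limma) and -0.22 for TFPIα (adjusted p = 0.685, limma). TFPIβ was lower in 3 of 3 replicate numbers, by -0.37, -0.31 and -0.60, and with replicate number as a block the unadjusted p was 0.0364 and the adjusted p 0.668 in limma. Across the 9 arrays SLC7A1 and SLC7A2 correlated at r = 0.68, which was 0.28 without the 2 arrays farthest from the SLC7A2 median.

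The genes whose pattern over the 9 arrays was most like that of SLC7A2 were not amino acid carriers. Among 11232 other measured genes, Pearson's r was highest for FBN2 (fibrillin, an extracellular matrix glycoprotein; r = 0.98, Spearman's rho = 0.87), SEC16A (endoplasmic reticulum exit sites; r = 0.98), SSTR1 (a somatostatin receptor; r = 0.95), FNDC3A (r = 0.95) and CAP2 (an actin-binding protein; r = 0.94). FBN2 had signals of 6.88, 5.86 and 6.63 in TFPIβ arrays, 6.93, 6.89 and 6.93 in TFPIα arrays, and 7.56, 7.70 and 7.68 in empty vector arrays, so TFPIβ replicate 2 was the lowest array here too. SLC7A1 ranked 377 and SLC7A11 ranked 645 on the same scale. The points are arrays that share pools and replicate numbers, so these values are descriptions.

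Of the markers of other cell types, DCN had a pattern like that of SLC7A2. DCN, which encodes the matrix proteoglycan decorin of fibroblasts, had signals of 9.66, 9.48 and 9.64 in TFPIβ arrays, 9.85, 9.68 and 10.32 in TFPIα arrays, and 10.52, 11.14 and 10.91 in empty vector arrays, and correlated with SLC7A2 at r = 0.85 (rank 51). Of 14 annotated stromal, endothelial and immune markers 6 reached the log2 signal of 5, and COL1A2, COL3A1, PDGFRB, CDH5, VWF, PTPRC, CD3E and ITGAM did not. The summed linear signal of the list was 1373 to 1545 in TFPIβ arrays, 1507 to 2036 in TFPIα arrays and 2196 to 3045 in empty vector arrays. DCN made up most of it: without DCN the sum was 620 to 745 in TFPIβ arrays, 586 to 758 in TFPIα arrays and 729 to 1125 in empty vector arrays, and these ranges overlapped. For the other measured markers of the list the arrays of the groups overlapped: LUM differed from empty vector by 0.32 for TFPIβ and 0.38 for TFPIα, COL1A1 by -0.08 and -0.80, CD14 by -0.87 and -0.40, PECAM1 by -0.10 and 0.11, and CD68 by -0.15 and -0.04. Their part in the SLC7A2 values was not tested, and in bulk RNA fewer cells of a type and less RNA per cell cannot be told apart.

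**Figure D2:**
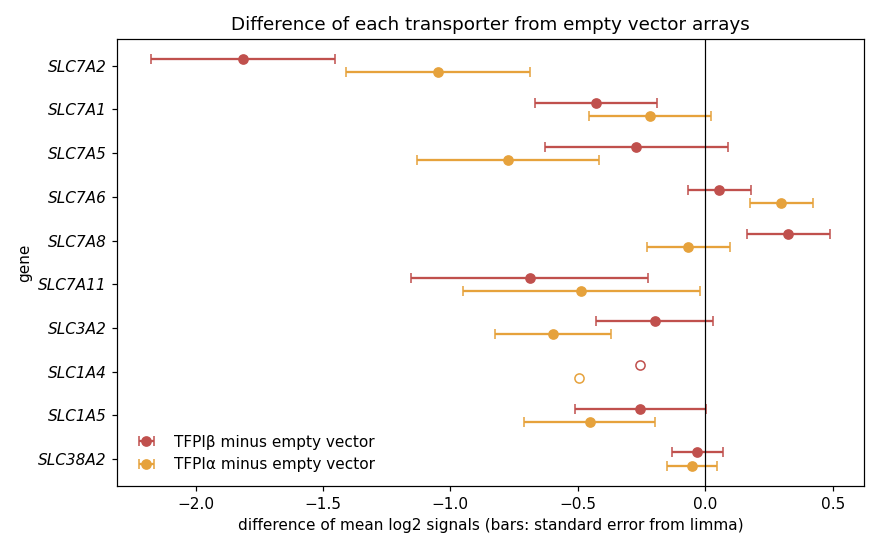
Difference of mean log2 signals (horizontal axis) of TFPIβ minus empty vector arrays and TFPIα minus empty vector arrays for the 10 transporters. Bars give the standard error from limma, and open circles mark SLC1A4, which did not pass the filter and was not fitted. SLC7A2 and SLC7A8 have bars but are shown as a description with no test. SLC7A2 lies at -1.81 and -1.05, and the other transporters lie between -0.77 and 0.33.

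SLC3A2 is the heavy chain that carries light chains to the plasma membrane. It had signals of 10.87, 10.66 and 10.14 in TFPIβ arrays, 10.54, 10.06 and 9.87 in TFPIα arrays, and 10.85, 10.53 and 10.88 in empty vector arrays. TFPIα replicates 2 and 3 were the lowest of the 9 arrays, followed by TFPIβ replicate 3, and the other 6 arrays lay close together. The TFPIα difference from empty vector was -0.60 (SE 0.23), with an unadjusted p of 0.0304 and an adjusted p of 0.344 in limma, and it was below 0 in 3 of 3 replicate numbers. TFPIβ differed by -0.20 from empty vector (adjusted p = 1, limma) and by 0.40 from TFPIα (adjusted p = 0.539, limma).

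SLC7A5 is LAT1, the light chain that takes up leucine and other large neutral amino acids in exchange for glutamine. Its signals were 11.19, 10.71 and 10.14 in TFPIβ arrays, 10.91, 10.00 and 9.63 in TFPIα arrays, and 11.12, 10.67 and 11.06 in empty vector arrays. The arrays lined up as they did for SLC3A2, with TFPIα replicates 2 and 3 and TFPIβ replicate 3 at the low end. The TFPIα difference from empty vector was -0.77 (SE 0.36, adjusted p = 0.364, limma), with -0.21, -0.68 and -1.43 within replicate numbers. The TFPIβ difference from empty vector was -0.27, made up of 0.07, 0.04 and -0.92, so that only replicate 3 was lower there. TFPIβ arrays were higher than TFPIα arrays in 3 of 3 replicate numbers, with a mean difference of 0.50 (adjusted p = 0.581, limma).

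SLC3A2 was the gene most like SLC7A5 among the 11232 others. This relation was chosen after its values were seen: Pearson's r was 0.98 and Spearman's rho 0.93 over 9 arrays, r was 0.95 without the 2 arrays farthest from the SLC7A5 median, and 0.98 after the group means were removed. The pairing of heavy and leucine light chain was thus as close within groups as across them. DDIT3 (CHOP), a transcription factor induced in amino acid and endoplasmic reticulum stress, ranked 3 for SLC7A5 with r = 0.96. Its signals were 6.31, 6.09 and 5.13 in TFPIβ arrays, 5.93, 5.01 and 4.74 in TFPIα arrays, and 6.20, 6.03 and 5.93 in empty vector arrays, with the same 3 arrays lowest.

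The other light chains followed that pattern less closely than SLC3A2 did. The correlation with SLC7A5 was 0.47 for SLC7A8 and 0.47 for SLC7A11. Without the 2 arrays farthest from the SLC7A5 median it was 0.17 and 0.71. SLC7A6 (y+LAT2), which exchanges arginine for glutamine, had signals of 7.02, 6.83 and 7.14 in TFPIβ arrays, 7.03, 7.29 and 7.41 in TFPIα arrays, and 7.03, 6.92 and 6.88 in empty vector arrays. It was highest in TFPIα replicates 2 and 3, where SLC7A5 was lowest, and the 2 genes correlated at r = -0.80, which was -0.31 without the 2 farthest arrays. The TFPIα difference from empty vector was 0.30 (SE 0.12), with an unadjusted p of 0.0414 and an adjusted p of 0.347 in limma. TFPIβ differed by 0.05 from empty vector (adjusted p = 1, limma) and by -0.24 from TFPIα (adjusted p = 0.532, limma).

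SLC7A8 is LAT2, a light chain for neutral amino acids of any size, and its signal was close to the filter. It had 5.35, 5.22 and 4.76 in TFPIβ arrays, 4.82, 4.75 and 4.59 in TFPIα arrays, and 4.63, 4.96 and 4.77 in empty vector arrays. Only TFPIβ replicates 1 and 2 reached the log2 signal of 5 that let the gene past the filter, so TFPIβ was the group that admitted it. The TFPIβ mean was 0.39 above TFPIα and 0.33 above empty vector, and TFPIα differed from empty vector by -0.07, given as a description. TFPIβ replicate 3 lay among the arrays of the other groups.

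SLC7A11 is xCT, the light chain that imports cystine for glutathione synthesis in exchange for glutamate. Its signals were 9.27, 8.10 and 8.37 in TFPIβ arrays, 8.73, 9.01 and 8.62 in TFPIα arrays, and 9.64, 8.19 and 9.98 in empty vector arrays. The empty vector arrays themselves spanned the widest range, with replicates 1 and 3 the highest of the 9 arrays and replicate 2 the second lowest. The difference from empty vector was -0.69 for TFPIβ (SE 0.47, adjusted p = 1, limma) and -0.49 for TFPIα (adjusted p = 0.635, limma). Within replicate numbers the TFPIα difference was -0.91, 0.81 and -1.36, so its direction was not shared. Single control arrays moved both values: without empty vector replicate 2 the differences were -1.23 for TFPIβ and -1.02 for TFPIα, without replicate 3 they were -0.33 and -0.13, and without replicate 1 the TFPIα difference was -0.30. For TFPIβ the difference was -1.04 without TFPIβ replicate 1 and -0.45 without TFPIβ replicate 2.

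SLC1A5 is ASCT2, the sodium-dependent glutamine carrier, and SLC1A4 is its relative ASCT1, which carries serine, alanine and cysteine. SLC1A5 had signals of 8.65, 8.09 and 8.01 in TFPIβ arrays, 8.32, 7.83 and 8.01 in TFPIα arrays, and 8.79, 7.99 and 8.74 in empty vector arrays. SLC1A4 had signals of 4.60, 4.23 and 3.93 in TFPIβ arrays, 4.06, 3.99 and 3.98 in TFPIα arrays, and 4.73, 4.12 and 4.67 in empty vector arrays, all below the log2 signal of 5. Both genes were high in empty vector replicates 1 and 3 and in TFPIβ replicate 1, and lower in the other TFPI arrays and in empty vector replicate 2.

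For SLC1A5 the difference from empty vector was -0.26 for TFPIβ (SE 0.26, adjusted p = 1, limma) and -0.45 for TFPIα (adjusted p = 0.423, limma), and TFPIα was lower in 3 of 3 replicate numbers. A second, dimmer probe set of SLC1A5 lay between 5.14 and 5.48 over all arrays. SLC1A4 differed by -0.25 for TFPIβ and -0.50 for TFPIα and was not tested. Every TFPIα array was below every empty vector array, as was true of 8.85% of the probe sets that passed the filter. Its highest signal, 4.73, was below the median signal of every array (4.78 to 4.88). SLC1A4 and SLC1A5 correlated at r = 0.93 over the 9 arrays, and at 0.91 with the group means removed.

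SLC38A2 is SNAT2, a sodium-coupled carrier of small neutral amino acids known for its regulation by amino acid supply. It was the steadiest of the 10, with signals of 11.28, 11.21 and 11.26 in TFPIβ arrays, 11.27, 11.30 and 11.12 in TFPIα arrays, and 11.14, 11.25 and 11.44 in empty vector arrays. The 9 arrays spanned 0.32 log2 units. Its differences from empty vector were -0.03 for TFPIβ (SE 0.10, adjusted p = 1, limma) and -0.05 for TFPIα (SE 0.10, adjusted p = 0.832, limma).

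The amino acid deprivation response, the programme of ATF4 and its targets, was read from a list of 30 genes, of which 28 were measured. None of the 28 was called in any comparison. Against empty vector, 27 of 28 had a difference below 0 in TFPIβ arrays (49.5% of all probe sets) with a median of -0.34, and 25 of 28 in TFPIα arrays (50%) with a median of -0.35. An unadjusted p under 0.05 with a lower mean was reached by 1 gene for TFPIβ (2.23% of all probe sets) and by 5 for TFPIα (5.58%). CHAC1, 1 of the 5, reached the log2 signal of 5 only in empty vector arrays (5.24 and 5.65). Its lower mean is therefore a description and no test. VLDLR, with group means of 4.04, 4.13 and 4.53, was also highest in empty vector arrays. The counts below 0 include both genes. The median moved with the control arrays used: for TFPIβ it was -0.22 without empty vector replicate 1, -0.62 without replicate 2 and -0.23 without replicate 3, and for TFPIα it was -0.62 without replicate 2 and -0.20 without replicate 3.

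ASNS, asparagine synthetase, had the largest difference of the list. Its signals were 7.90, 6.48 and 6.58 in TFPIβ arrays, 6.58, 6.57 and 6.41 in TFPIα arrays, and 9.15, 6.23 and 9.12 in empty vector arrays. Empty vector replicates 1 and 3 stood far above, and empty vector replicate 2 was the lowest of the 9 arrays, so the control group held both ends of the range. The difference from empty vector was -1.18 for TFPIβ (SE 0.75, adjusted p = 1, limma) and -1.65 for TFPIα (adjusted p = 0.361, limma).

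CTH, which makes cysteine from cystathionine, had signals of 5.17, 4.50 and 4.87 in TFPIβ arrays, 4.65, 4.79 and 4.54 in TFPIα arrays, and 6.45, 4.51 and 6.89 in empty vector arrays. It too was high in empty vector replicates 1 and 3 only. WARS1, the tryptophanyl-tRNA synthetase, differed by -0.80 for TFPIβ, and ALDH1L2, a mitochondrial folate enzyme, by -0.85 for TFPIα. ATF4 itself, chosen for mention by its role, had signals of 10.37, 10.21 and 9.96 in TFPIβ arrays, 10.04, 9.61 and 9.87 in TFPIα arrays, and 10.69, 10.12 and 10.49 in empty vector arrays. Its difference from empty vector was -0.59 for TFPIα (unadjusted p = 0.0107, adjusted p = 0.335, limma) and -0.25 for TFPIβ.

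The transporters differed in how their patterns ran with ASNS. Over the 9 arrays the correlation with ASNS was 0.93 for SLC1A4, 0.92 for SLC1A5, 0.91 for SLC7A11, 0.74 for SLC7A1, 0.69 for SLC3A2, 0.65 for SLC7A5, 0.55 for SLC7A2 and 0.29 for SLC38A2, and differences between these values were not tested. Without the 2 farthest arrays it was 0.85, 0.84, 0.75 and 0.64 for the first 4 of these genes. SLC7A2 differed from them in empty vector replicate 2, where it stayed at 8.90 while ASNS, SLC7A11, SLC1A4 and SLC1A5 were low.

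**Figure D3:**
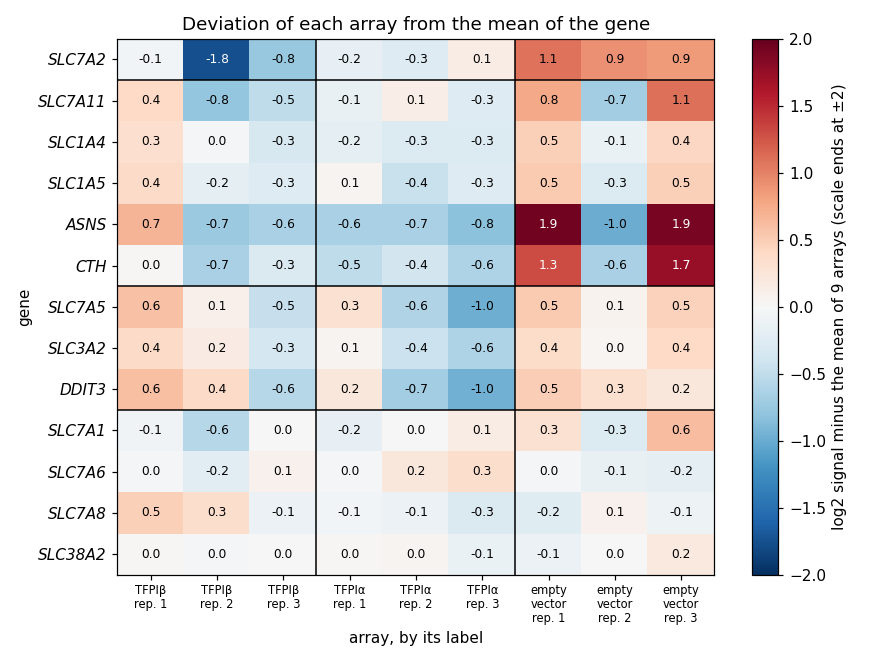
Log2 signal of each array minus the mean of the gene over the 9 arrays (colour and printed value, scale ending at 2 log2 units either way), with arrays in columns by label and genes in rows. SLC7A2 is high in all empty vector arrays, the block from SLC7A11 to CTH is high in empty vector replicates 1 and 3 and low in replicate 2, and SLC7A5, SLC3A2 and DDIT3 are lowest in TFPIα replicates 2 and 3 and TFPIβ replicate 3.

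Of 35 other amino acid transporters, 20 were measured and none was called. Against empty vector 12 of the 20 had a difference below 0 in TFPIβ arrays (49.5% of all probe sets), with a median of -0.01. In TFPIα arrays 8 of 20 did (50%), with a median of 0.08. An unadjusted p under 0.05 was reached by 1 gene for TFPIβ, lower (2.23% of all probe sets). In TFPIα it was reached by 3 genes that were higher (8.59%) and 1 that was lower (5.58%). SLC36A1, 1 of these 3, averaged 5.06 in TFPIα, 4.66 in TFPIβ and 4.75 in empty vector arrays. It passed the filter through TFPIα arrays, so its higher mean is a description and no test. SLC6A9, the glycine transporter GLYT1, had signals of 5.95, 5.40 and 5.22 in TFPIβ arrays, 5.49, 5.17 and 5.58 in TFPIα arrays, and 6.76, 5.39 and 6.51 in empty vector arrays. It was high in empty vector replicates 1 and 3, as ASNS was, and its differences were -0.70 and -0.81. SLC6A6, the taurine transporter, differed by -0.41 for TFPIβ. SLC1A1, a glutamate carrier, differed by 0.29 for TFPIβ and 0.63 for TFPIα (adjusted p = 0.335, limma), and SLC25A15, the mitochondrial ornithine carrier, by 0.85 for TFPIα.

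Arginine and polyamine metabolism, which uses what the cationic carriers bring in, was read from 30 genes, of which 23 were measured and none was called. Against empty vector 13 of 23 were below 0 in TFPIβ arrays (median -0.02), where 49.5% of all probe sets were. In TFPIα arrays 7 of 23 were (median 0.15), against 50% of all probe sets. The 23 include DDAH1, which averaged 5.07 in TFPIα, 4.70 in TFPIβ and 4.71 in empty vector arrays. It passed the filter through TFPIα arrays, so its higher mean there is a description and no test. SAT1, the enzyme that acetylates spermidine and spermine, differed by -0.40 for TFPIβ and -0.64 for TFPIα (adjusted p = 0.335, limma). ARG2, mitochondrial arginase, differed by -0.42 for TFPIβ, and ODC1, ornithine decarboxylase, by -0.33. In TFPIα arrays AGMAT differed by 0.61 and SRM, spermidine synthase, by 0.55.

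**Figure D4:**
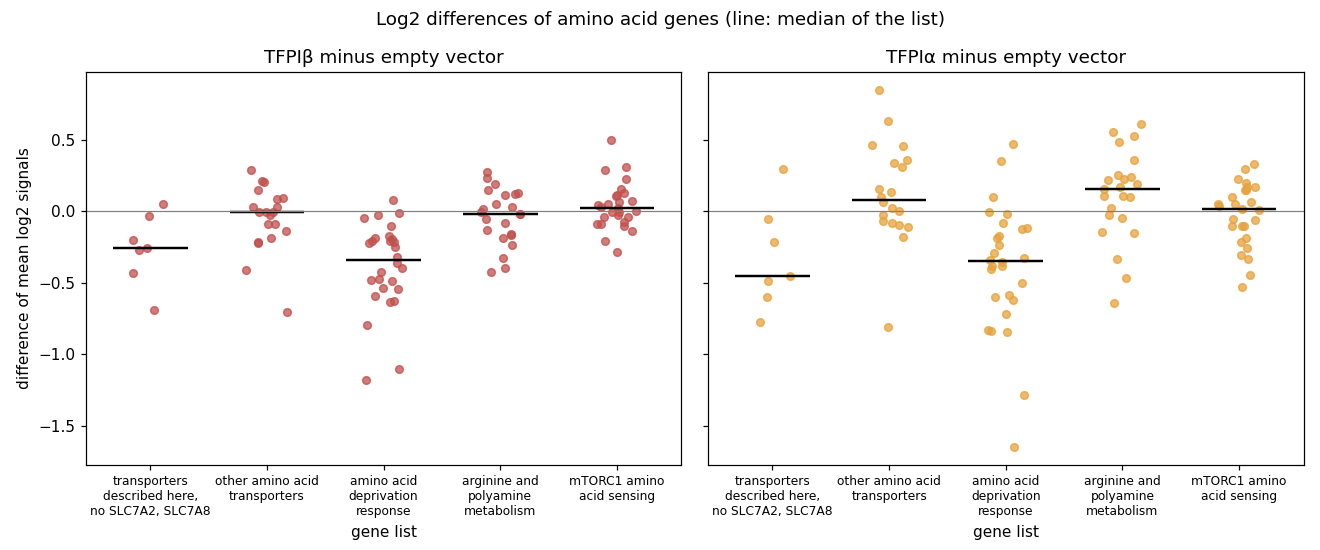
Difference of mean log2 signals (vertical axis) of each measured gene in 5 lists, for TFPIβ minus empty vector (left) and TFPIα minus empty vector (right), with a line at the median of each list. The 7 tested transporters have medians of -0.26 and -0.45 and the amino acid deprivation genes -0.34 and -0.35, while the other 3 lists have medians between -0.02 and 0.15.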

How the data were processed

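The authors deposited log2 signals of 9 arrays, made by RMA in Partek (versions not given in the sources used here), 33297 probe sets, with no separate background or detection values. Probe sets whose highest log2 signal was at least 5 were kept (17482: 11838 with 1 gene symbol, 1150 with several, 4494 with none) and fitted over the 3 groups with limma 3.58.1 (lmFit, eBayes) in R 4.3.3, a moderated form of the analysis of variance in the study's methods, with Benjamini-Hochberg adjustment over all of them. The fit was tested on simulated data. Symbols came from the platform annotation, updated through RefSeq gene IDs. Precision was limited by 3 arrays a group: an exact permutation test of 3 against 3 cannot go below p = 0.1.

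Members and gene lists were chosen with earlier results of these data known. Named were all members, TFPI, up to 3 genes of each list with the largest differences, and the 5 genes most like SLC7A2. CHAC1, VLDLR, SLC36A1 and DDAH1 were named because of how their signals stood to the filter. Other genes picked otherwise are said to be.

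Replicate numbers paired the arrays: deviations from group means of arrays with the same number correlated at 0.137 to 0.594 (9 pairs), against -0.512 to 0.266 for 18 pairs with different numbers, and for 8 of 9 arrays the closest array bore the same number. Alternatives were the replicate block, other filters, thresholds, scalings, and each array left out.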

Additional observations from a re-analysis of the deposited data

How the results depend on the processing

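Of the 7 tested transporters 0 were called in each comparison under all alternatives, and the lowest adjusted p over them was 0.668 for TFPIβ against empty vector, 0.182 for TFPIα against empty vector and 0.154 for TFPIβ against TFPIα, all from limma. With the replicate block, an unadjusted p under 0.05 was reached by 1 of 7 in the first comparison (SLC7A1; 7.16% of all probe sets), by 3 in the second (SLC7A5, SLC3A2 and SLC1A5; 20.3%), where SLC7A6 no longer was, and by 0 in the third (15.4%), and it changed no call. Centring the arrays or averaging probe sets turned no difference; the other fits leave a difference of means as it is. Leaving out single arrays turned these differences: against empty vector, TFPIβ values ranged from -0.53 to 0.00072 for SLC7A5, from -0.016 to 0.14 for SLC7A6, from -0.36 to 0.012 for SLC3A2 and from -0.10 to 0.052 for SLC38A2, and TFPIα values from -0.14 to 0.019 for SLC7A8 and from -0.12 to 0.032 for SLC38A2. TFPIβ against TFPIα ranged from -0.55 to 0.037 for SLC7A11, from -0.0022 to 0.33 for SLC1A5 and from -0.034 to 0.055 for SLC38A2. Of the amino acid deprivation genes, 25 to 27 stayed below 0 for TFPIβ and 23 to 26 for TFPIα. The cause was not tested. With 3 arrays a group and signals near the filter, SLC7A8 and SLC1A4 have the weakest basis.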

Other observations

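The sensing of amino acids by mTORC1, the kinase complex that couples leucine and arginine supply to growth, was read from a list of 30 genes, of which 27 were measured and 0 were called by limma in any comparison. Against empty vector 12 of 27 differences were below 0 in TFPIβ arrays (49.5% of all probe sets) and 12 of 27 in TFPIα arrays (50%). The medians were 0.02 and 0.01. At an unadjusted p under 0.05, 1 of the 27 genes was lower in each of these comparisons, against 2.23% of all probe sets for TFPIβ and 5.58% for TFPIα. SESN3, a sestrin, differed by 0.50, RRAGD, a Rag GTPase, by 0.31 and LAMTOR2, a Ragulator subunit, by 0.29 in TFPIβ arrays. SESN1 differed by -0.53, RRAGB by -0.44 and FNIP1, a folliculin partner, by -0.33 in TFPIα arrays.

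After SLC3A2, the genes most like SLC7A5 over the 9 arrays were SCNN1A, a subunit of the epithelial sodium channel (r = 0.97), DDIT3 (r = 0.96), AMT of the glycine cleavage system (r = 0.96) and BCHE, butyrylcholinesterase (r = 0.95). These genes were looked up after the values of SLC7A5 were seen.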
